A study of Ovis aries with 40 samples.

Results

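MX1, MX2, ISG15 and RTP4, 4 genes that type I interferon induces, were followed in sheep longissimus dorsi, the long muscle of the back. They were taken as the 4 probes A_70_P039536 (MX1), A_70_P039716 (MX2), A_70_P030156 (ISG15) and A_70_P030131 (RTP4), together with any other probe that carried one of these symbols. This gave 5 probes of the 15008 on the array, with a second RTP4 probe, A_70_P030132, as the only addition. The files name the ISG15 probe ISG17, an older name of the gene. Of the 14480 probes tested, all 5 were included, and each was well above the local background on all 40 arrays.

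The study asked how muscle gene expression differs before birth between 2 purebred breeds, Texel and Ujumqin, and how it changes with age. The paper takes the Texel, kept for meat, as a breed with a myostatin (GDF8) mutation and the Ujumqin as without it. Breed and this mutation therefore cannot be told apart here, and the labels do not give the genotype of single animals. Each array held the labelled RNA of 1 animal. There were 16 Texel fetuses (T70, T85, T100, T120 and T135, named by breed and days of gestation), 15 Ujumqin fetuses of the same ages (U70 to U135) and 9 Ujumqin lambs (Ubirth, U1mo and U2mo, at birth, 1 month and 2 months). No Texel lambs were among the samples. Each of the 13 groups held 3 animals, except T100 with 4. Fetuses were taken by caesarean section from 3 ewes per breed and stage, so that at least 2 of the 4 T100 fetuses shared a dam. The labels do not say which, and the tests counted each fetus as a separate animal. The ewes carrying the fetuses had been brought into estrus together with hormones and inseminated with semen of their own breed, in both breeds alike. The T120 fetuses were all male, and the U120, U135 and U2mo animals were all female.

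Type I interferons are cytokines that cells release when they sense viral or other foreign nucleic acid. They bind a receptor made of IFNAR1 and IFNAR2, and signalling through JAK kinases and STAT factors then switches on a large set of interferon-stimulated genes. MX1 and MX2 are dynamin-like GTPases that act against viruses, ISG15 is a ubiquitin-like protein that is attached to other proteins or secreted, and RTP4 is a receptor transporter protein that interferon induces. In ruminants, MX1, MX2 and ISG15 are also known from the uterus and blood of early pregnancy, where the conceptus secretes a type I interferon of its own. MX1 and MX2 are neighbours in the RefSeq annotation of the sheep assembly ARS-UI_Ramb_v3.0.

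The last 30 bases of each 60-base probe are shown to mark where the hexamer lies and how far the 5 probes are separate measurements. The gene of each probe was taken from its annotation. They run 5′ to 3′, and capitals mark the hexamer AATAAA, the usual polyadenylation signal.
MX1 (A_70_P039536): caatttgtaatacagttctttctaccagaa
MX2 (A_70_P039716): tataaacttcatattctAATAAAtcacttc
ISG15 (A_70_P030156): tggatgatgagcacccgctgggggaatacg
RTP4 (A_70_P030131): ttctggtgtctaaatacttatgAATAAAaa
RTP4 (A_70_P030132): tttctggtgtctaaatacttatgAATAAAa
The MX2 probe and both RTP4 probes held the hexamer, which was found in 5.63% of all 15008 probes as printed and in 9.14% when both strands were searched. The RTP4 probes shared 59 of their 60 bases, so that they repeat 1 measurement. Over the 40 animals their log2 signals differed by a mean of 0.11 (SD 0.15), against an SD between animals of a group of 1.09. Between probes of different genes the longest shared run was 6 bases, and the MX1 and MX2 probes shared 5.

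The arrays lay on 5 slides of 8 arrays, each slide scanned as 1 scan. The median signal per array before normalization ran from 218 to 708, between 79.3% and 90.9% of spots were well above background, and no spot was saturated. In all that follows, a level is the log2 of the quantile-normalized signal, so that 1 unit is a doubling, and levels are compared between animals but never between probes. The 9 skeletal muscle markers on the array were well above background on all 40 arrays. In whole muscle, fewer cells of a type and less RNA per cell cannot be told apart.

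The 4 genes were low at 70 and 85 d, and differed widely between animals of the same group at T100, T120, U120 and U2mo. The highest animal was the same for all 4 genes, T120 replicate 2, and it stood 63.1-fold (MX1), 88.9-fold (MX2), 156-fold (ISG15) and 138-fold (RTP4) above the lowest animal of the series for that gene. For MX1 and ISG15 the next highest were U120 replicate 1 and T100 replicate 4.

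MX1 in Texel fetuses measured 9.72, 9.08 and 9.87 at T70, 9.61, 10.37 and 10.79 at T85, 11.83, 13.01, 10.32 and 13.92 at T100, 13.01, 14.69 and 12.81 at T120, and 13.13, 12.02 and 12.002 at T135. In Ujumqin fetuses MX1 measured 8.71, 9.77 and 9.29 at U70, 9.30, 9.79 and 8.92 at U85, 10.25, 10.82 and 10.36 at U100, 14.49, 10.81 and 10.33 at U120, and 10.87, 10.70 and 11.51 at U135. After birth MX1 measured 11.13, 11.29 and 10.08 at birth, 10.57, 9.84 and 11.07 at 1 month, and 12.50, 12.33 and 10.59 at 2 months. Apart from U120 replicate 1, every T120 fetus was above every Ujumqin animal, and every T135 fetus above all but the higher pair of 2-month lambs.

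MX2 in Texel fetuses measured 9.28, 8.78 and 8.88 at T70, 8.76, 8.69 and 8.30 at T85, 9.12, 10.56, 8.76 and 12.19 at T100, 9.97, 14.46 and 10.53 at T120, and 10.15, 10.46 and 10.61 at T135. In Ujumqin fetuses MX2 measured 8.35, 8.56 and 8.15 at U70, 7.98, 8.65 and 8.18 at U85, 9.04, 8.05 and 8.07 at U100, 11.59, 7.99 and 8.13 at U120, and 8.71, 8.55 and 9.23 at U135. After birth MX2 measured 9.29, 9.29 and 9.58 at birth, 10.06, 9.15 and 9.75 at 1 month, and 12.32, 9.85 and 9.35 at 2 months. MX2 thus stayed below 9.3 in every Ujumqin fetus but U120 replicate 1, and after birth it was lowest on average in the newborn lambs.

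ISG15 in Texel fetuses measured 8.70, 8.27 and 9.54 at T70, 8.43, 9.16 and 9.99 at T85, 11.18, 12.28, 8.95 and 13.55 at T100, 12.36, 15.16 and 11.88 at T120, and 13.004, 12.06 and 11.65 at T135. In Ujumqin fetuses ISG15 measured 7.87, 9.29 and 8.39 at U70, 8.13, 8.07 and 7.89 at U85, 9.12, 9.24 and 9.41 at U100, 14.01, 9.80 and 9.49 at U120, and 9.77, 9.94 and 10.73 at U135. After birth ISG15 measured 10.16, 9.55 and 8.73 at birth, 10.47, 9.75 and 10.56 at 1 month, and 12.94, 12.24 and 10.51 at 2 months. The U85 and U100 fetuses lay within 0.24 and 0.29 of each other, while the U120 fetuses were 4.52 apart, a 23.0-fold range.

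RTP4 in Texel fetuses measured 7.94, 7.55 and 8.37 at T70, 7.41, 7.45 and 8.37 at T85, 9.68, 10.90, 8.41 and 12.69 at T100, 10.58, 14.51 and 12.01 at T120, and 12.02, 10.46 and 11.59 at T135. In Ujumqin fetuses RTP4 measured 7.84, 8.43 and 7.67 at U70, 7.60, 7.80 and 7.80 at U85, 7.87, 8.98 and 8.38 at U100, 11.96, 8.94 and 9.14 at U120, and 8.77, 9.55 and 9.77 at U135. After birth RTP4 measured 9.41, 8.22 and 7.62 at birth, 9.41, 9.96 and 9.74 at 1 month, and 11.99, 10.44 and 9.66 at 2 months. At 70 and 85 d the breeds overlapped for RTP4, with all 12 fetuses between 7.41 and 8.43.

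**Figure D1:**
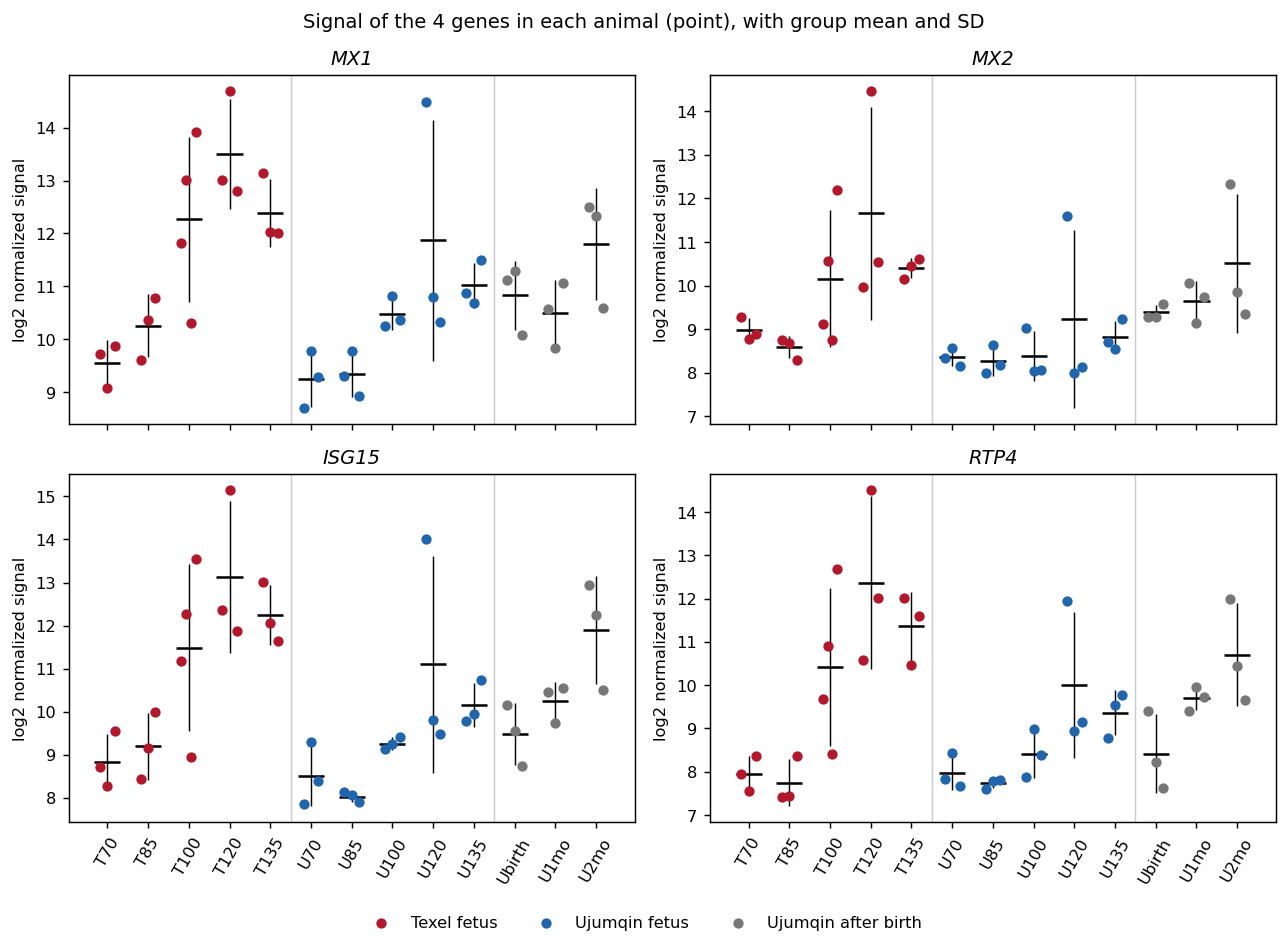
Level (log2 normalized signal) of MX1, MX2, ISG15 and RTP4 in each of 40 animals (points) by group, with the group mean (bar) and SD (line). Levels were low at 70 and 85 d, and T120 replicate 2 and U120 replicate 1 stood above the rest of their group in all 4 panels.

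Ordered by mean level, U70 or U85 stood lowest and T120 highest for all 4 genes, and T135 or U2mo came second. MX1 averaged 9.26 ± 0.53 (SD, n = 3) at U70 and 13.50 ± 1.03 at T120. ISG15 averaged 8.03 ± 0.12 at U85 and 13.13 ± 1.77 at T120, and RTP4 7.73 ± 0.12 at U85 and 12.37 ± 1.99 at T120. For MX2 the corresponding means were 8.27 ± 0.34 at U85 and 11.65 ± 2.45 at T120. Between groups next to each other in that order, the ranges of the animals overlapped at all 12 steps for the 4 probes of the rule, and at 11 of 12 for the second RTP4 probe.

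The first comparison asked whether the genes changed with stage within a breed. In Texel fetuses all 4 genes changed with stage, with adjusted p = 0.000388 for MX1, 0.028 for MX2, 0.000724 for ISG15 and 5.33e-05 for RTP4 (limma F test over 5 stages, Benjamini-Hochberg adjustment over all tested probes), where 52% of all probes passed. In Ujumqin over 8 stages, 3 of the 4 passed, with adjusted p = 0.0179 for MX1, 0.00785 for ISG15 and 0.0185 for RTP4, and 0.215 for MX2 (limma), against 79.7% of all probes. The members' share was therefore no larger in Ujumqin than that of the array as a whole. Within the 15 Ujumqin fetuses alone, MX1 passed (limma adjusted p = 0.0275) and the other 3 did not, with 37.9% of all probes passing. With slide as a block none of the 4 passed in either breed, where each slide held only some of the stages, and with sex in the model 1 of the 4 passed in Ujumqin.

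Of the 11 steps from 1 stage to the next, 1 passed for these genes. RTP4 rose by 2.68 (SE 0.79, limma adjusted p = 0.0362) from T85 to T100, from 7.74 ± 0.55 (n = 3) to 10.42 ± 1.82 (n = 4), a step at which 2.82% of all probes rose. The same step measured 2.30 (SE 0.88) for ISG15, 2.01 (SE 0.73) for MX1 and 1.57 (SE 0.83) for MX2, with limma adjusted p = 0.106, 0.0854 and 0.256. Within T100, replicate 3 was lowest and replicate 4 highest for all 4 genes, by 4.60 for ISG15. The RTP4 call was lost without T100 replicate 4 (1.92, limma adjusted p = 0.154), T100 replicate 2 (2.52, 0.0831), T85 replicate 1 (2.51, 0.120) or T85 replicate 2 (2.53, 0.137), and with slide as a block (1.31, 1.00). Without T100 replicate 3 the step also passed for MX1 (2.66, limma adjusted p = 0.0294) and ISG15 (3.14, 0.0301). Of all probes, 0.67%, 7.51%, 14.7% and 6.44% changed at the 4 Texel steps and 0.276%, 1.71%, 1.22% and 9.95% at the 4 steps between Ujumqin fetal stages. Around birth, when 42.9% of all probes changed between U135 and Ubirth, none of the 4 genes passed. Their differences there were −0.19 (MX1), 0.56 (MX2), −0.67 (ISG15) and −0.95 (RTP4), with limma adjusted p from 0.385 to 0.862. From birth to 1 month 21% of all probes changed and from 1 to 2 months 7.58%, again none of the 4 genes. Between 1 and 2 months they differed by 1.31 (MX1), 0.86 (MX2), 1.64 (ISG15) and 0.99 (RTP4), with limma adjusted p from 0.301 to 0.604, and U2mo replicate 1 was the highest lamb for each.

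The second comparison asked whether the breeds differed at each stage. At 135 d, the stage at which the study itself named these genes from these samples, all 3 Texel fetuses were above all 3 Ujumqin fetuses for 4 of 4 genes, as were 6.74% of all tested probes. Because of that choice the 135 d values are a description and no independent evidence. ISG15 was 2.09 higher in Texel (95% confidence interval 1.1 to 3.1), 12.24 ± 0.69 against 10.15 ± 0.51. RTP4 was 1.99 higher (0.90 to 3.09), MX2 1.58 higher (1.00 to 2.15) and MX1 1.36 higher (0.45 to 2.27). No gene passed the adjustment over all probes, with limma adjusted p = 0.414 for ISG15, 0.576 for RTP4, 0.208 for MX2 and 0.665 for MX1, where 0.0207% of all probes passed. An exact permutation test of 3 against 3 cannot go below p = 0.1, the value all 4 genes reached.

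All 3 U135 arrays lay on slide 5, with T135 replicates 2 and 3, while T135 replicate 1 lay on slide 4. Of the 31 fetal arrays, T135 replicate 1 had the lowest median signal (234) and the lowest share of spots well above background (81.3%). It was the highest T135 fetus for MX1, ISG15 and RTP4 and the lowest for MX2. Within slide 5 the pair of Texel fetuses was still above the 3 Ujumqin fetuses for all 4 genes, by 1.71 for ISG15, 1.66 for RTP4, 1.70 for MX2 and 0.99 for MX1. The sexes were also uneven at 135 d, with T135 replicate 2 female, T135 replicates 1 and 3 male and all U135 fetuses female. The summed signal of the 10 leukocyte markers on the array ran from 4587 to 11287 in T135 and from 5773 to 6715 in U135. CD1D was the brightest of them and so weighed most in the sum. None of these 10 markers passed at 135 d, with a median difference of 0.59 against −0.002 over all probes, and CD4 was well above background on only 4 of 40 arrays. The part of the leukocyte markers in the breed difference was not tested.

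At 70 d only MX2 had no overlap between breeds (Texel higher by 0.63, 95% confidence interval 0.17 to 1.08), where Texel was entirely above for 12.8% of all probes. At 85 d this held only for ISG15 (Texel higher by 1.16, 0.25 to 2.08), against 10.7% of all probes. At 100 and 120 d the breeds overlapped for all 4 genes, where Texel was entirely above for 4.74% and 5.86% of all probes. Texel averaged higher there by 1.77 to 2.23 at 100 d and by 1.63 to 2.42 at 120 d, and the intervals of all 8 differences included 0. At 120 d the ISG15 interval ran from −1.40 to 5.46, since U120 replicate 1 reached 14.01 when its group mates were at 9.80 and 9.49. Over the 5 stages 0 of 20 tests passed the adjustment (limma), where 0.117%, 0.0207%, 0.0138%, 0.0345% and 0.0207% of all probes passed, in the order of the stages. In 1 fit over all groups with slide as a block, chosen after seeing the data, RTP4 passed at 120 d (Texel higher by 2.94, limma adjusted p = 0.0439), as did 6.27% of all probes, while its second probe did not (2.65, adjusted p = 0.0765). At an unadjusted p under 0.05 with at least a 2-fold difference, 5 of the 20 passed, the 4 genes at 135 d, where 1.08% of all probes passed with Texel higher, and ISG15 at 85 d, where 0.974% did. The corresponding shares were 1.58% at 70 d, 0.773% at 100 d and 2.24% at 120 d. Sex and breed cannot be told apart at 120 d, when all Texel fetuses were male and all Ujumqin fetuses female.

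**Figure D2:**
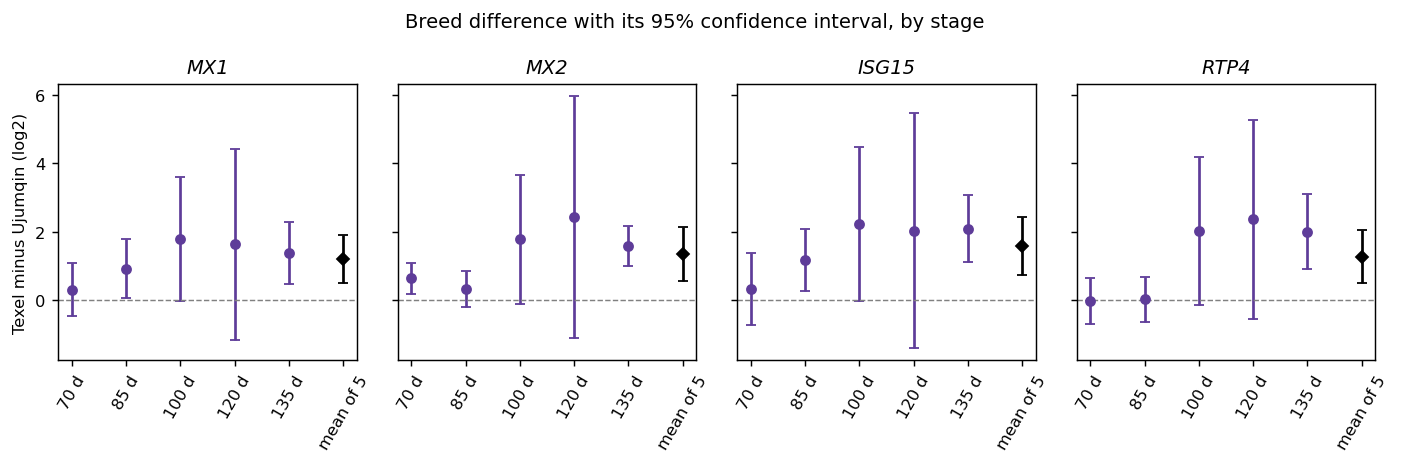
Texel minus Ujumqin difference (log2) of the 4 genes at each of 5 fetal stages (circles, 3 animals a breed, 4 for T100) and averaged over the stages (diamonds), with 95% confidence intervals. The intervals were widest at 120 d, and those of the average lay above 0 for all 4 genes.

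The third comparison took the breed difference averaged over the 5 fetal stages, in 1 fit over all 13 groups. Texel fetuses were higher in all 4 genes, by 1.20 (SE 0.35) for MX1, 1.34 (SE 0.39) for MX2, 1.57 (SE 0.42) for ISG15 and 1.27 (SE 0.37) for RTP4, a 2.30- to 2.96-fold difference. All 4 passed, with limma adjusted p = 0.0329, 0.0351, 0.0212 and 0.0379, where 2.82% of all probes were called higher in Texel. When the breed labels were exchanged within stages, an exact permutation test gave two-sided p = 0.00245 for MX1, 0.00107 for MX2, 0.00164 for ISG15 and 0.00479 for RTP4, not adjusted for other probes. Without the 135 d stage the differences were 1.16, 1.28, 1.44 and 1.09, with exact permutation p = 0.0158, 0.0148, 0.0154 and 0.0407. None of the 4 then passed across all probes (limma adjusted p = 0.0658, 0.0721, 0.0591 and 0.115), where 3.05% of probes were called higher in Texel.

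The call also rested on single animals and on the slides. Leaving out 1 of the 40 arrays at a time left between 1 and 4 of the 4 genes past the threshold, ISG15 in every case, with adjusted p up to 0.0732 for the others. The call was lost without 11 arrays for MX1, 15 for MX2 and 18 for RTP4, each left out singly. The count fell to 1 without T70 replicate 1, T100 replicate 2, T120 replicate 2, U85 replicate 3, U100 replicate 3, U120 replicate 2 or U120 replicate 3. It fell to 2 without T70 replicate 3, T85 replicate 3, T100 replicate 4, T135 replicate 1, U70 replicate 1, U70 replicate 3, U85 replicate 1 or U135 replicate 1. With slide as a block the differences were larger, 1.45 to 2.05, but their errors were too, and 0 of 4 passed (limma adjusted p from 0.141 to 0.398). At 70 d each slide held 1 breed only, so that slide and breed cannot be told apart at that stage.

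Whether the breed difference itself changed between stages was tested directly. It passed for none of the 4 genes (limma adjusted p = 0.878 for MX1, 0.773 for MX2, 0.836 for ISG15 and 0.516 for RTP4), where 0.207% of all probes passed, 13.5% of probes had an unadjusted p under 0.05, and none of the 4 genes did. Set against the mean of the other 4 stages, the difference at 135 d was larger by 0.20 for MX1 (95% confidence interval −1.58 to 1.98), 0.29 for MX2 (−1.72 to 2.31), 0.65 for ISG15 (−1.50 to 2.80) and 0.91 for RTP4 (−1.03 to 2.84), where 0.0552% of all probes passed. A breed difference particular to 135 d was thus not detectable with these animals. Between males and females of the same group, no gene passed either. Male minus female measured −0.26 (SE 0.39) for MX1, −0.15 (SE 0.45) for MX2, −0.38 (SE 0.47) for ISG15 and −0.37 (SE 0.42) for RTP4, where 0.0552% of all probes passed and 3.28% had an unadjusted p under 0.05, none of the 4 among them (limma).

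Spread between animals of 1 group was the most marked feature of these genes. The SD pooled over the 13 groups was 1.00 for MX1, 1.13 for MX2, 1.21 for ISG15 and 1.09 for RTP4, against a median of 0.31 over all tested probes. These values were above those of 97.0%, 98.2%, 98.6% and 97.9% of probes. The spread was uneven. For ISG15 it ran from 0.12 at U85 and 0.15 at U100 to 1.95 at T100 and 2.52 at U120, and for MX2 from 0.17 at Ubirth to 2.45 at T120. The median SD of all probes was 0.19 at U85, 0.20 at U100 and 0.24 at Ubirth, above these lowest values. At T120 it was 0.40. The range within U120 was 17.8-fold for MX1, 12.1-fold for MX2, 23.0-fold for ISG15 and 8.06-fold for RTP4, while the median SD of all probes in U120 was 0.19. Leaving out T120 replicate 2 or U120 replicate 1 lowered the median ratio of the members' SD to that of all probes from 3.64 to 3.30.

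**Figure D3:**
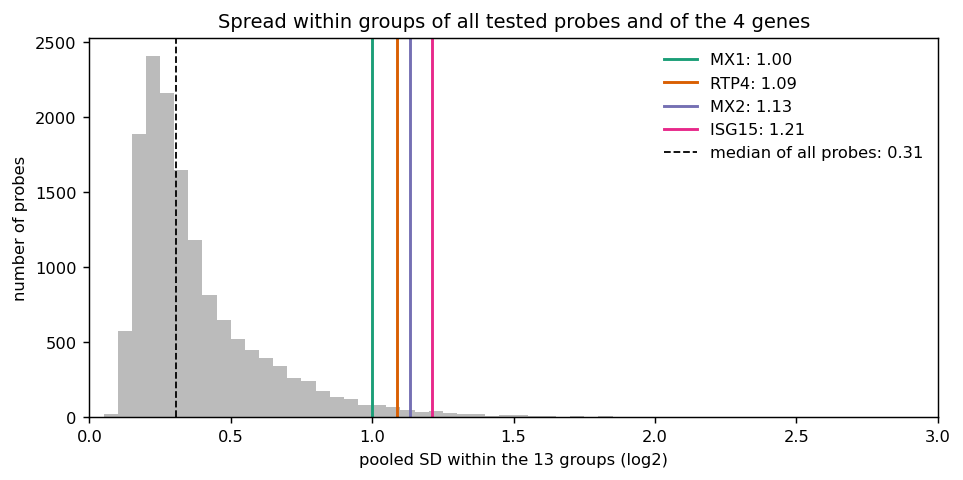
Number of tested probes by their SD pooled within the 13 groups (log2), with the SD of the 4 genes (coloured lines) and the median of all probes (dashed line). The 4 genes lay between 1.00 and 1.21, in the upper tail of a distribution with its median at 0.31.

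Departures from the group mean were shared most closely by MX1, ISG15 and RTP4 and less by MX2. The same animal was highest for all 4 genes in 6 of the 13 groups, namely T100, T120, U70, U120, U135 and U2mo, and the same animal was lowest in 3 of the 13. After subtraction of the group means, MX1 and ISG15 moved most closely together over the 40 animals (Pearson r = 0.966, Spearman rho = 0.955), both with p = 1e-05, the smallest that 100000 permutations within groups can give, and 2e-05 after Benjamini-Hochberg adjustment over the 6 pairs. ISG15 and RTP4 followed (r = 0.886, rho = 0.831), then MX1 and RTP4 (r = 0.840, rho = 0.794), each with permutation p = 1e-05 and 2e-05 adjusted. The pairs with MX2 were looser. They had r = 0.822 with RTP4 (permutation p = 0.00198, adjusted 0.00198), 0.812 with ISG15 (0.00107, 0.00128) and 0.765 with MX1 (0.00095, 0.00128), and their rank correlations were only 0.527, 0.576 and 0.582 (permutation p = 0.0143, 0.00621 and 0.00603, adjusted 0.0143, 0.00745 and 0.00745).

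These relations were weaker but remained when 2 animals were left out for each pair. Other animals with large deviations stayed in, T100 replicate 4 for every pair, so the check does not cover them. Without the 2 animals farthest from the median of the first gene of each pair, r was 0.946 for MX1 and ISG15, 0.851 for ISG15 and RTP4, 0.789 for MX1 and RTP4, and between 0.69 and 0.743 for the MX2 pairs. Within slides, the 6 pairs ran from 0.91 to 0.99 on slide 3, from 0.92 to 0.98 on slide 4 and from 0.69 to 0.96 on slide 5. On slide 2 they ran from 0.32 to 0.82. On slide 1, which held T70, part of T85 and Ubirth, the 3 pairs with MX2 were negative (−0.24 to −0.37) and the other 3 positive (0.66 to 0.87). In the 9 lambs after birth r was 0.933 for MX1 and ISG15, 0.821 for ISG15 and RTP4 and between 0.546 and 0.683 for the other 4 pairs. The 13 group means of the genes also moved together, with r from 0.882 to 0.981, as a description over groups.

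**Figure D4:**
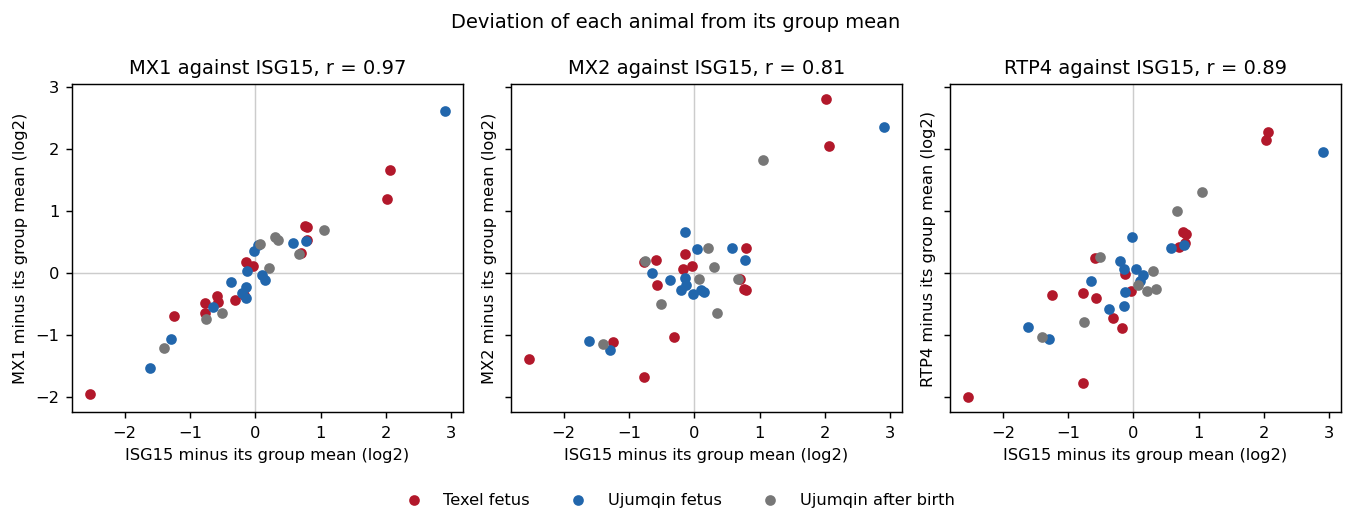
Deviation of each of 40 animals from its group mean (log2) in MX1, MX2 and RTP4 (vertical axes) against that in ISG15 (horizontal axes). MX1 followed ISG15 along a line, whereas MX2 was spread around 0 for most animals and followed ISG15 mainly in the animals with large deviations.

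The other genes that shared this pattern were sought by the correlation of their deviations with the mean scaled deviation of the 4 genes over the 40 animals, as a description. Of the other 14475 tested probes, 6 had r above 0.8 and 10 above 0.7, and the median was −0.019. The closest 2 were A_70_P037801, which has no gene name in the files (r = 0.894), and A_70_P052396, which the study annotated as OAS1, an interferon-induced enzyme that makes 2′-5′-linked oligoadenylates (r = 0.893). The other 4 above 0.8, A_70_P014056, A_70_P057836, A_70_P060911 and A_70_P063266, carry no gene name. The OAS1 probe was well above background on 35 of 40 arrays, and its group means also came closest to those of the 4 genes (r = 0.989 over 13 groups). It measured 7.42 ± 0.67 at T135 and 5.65 ± 0.40 at U135. Averaged over the fetal stages it was 1.22 higher in Texel (SE 0.41, limma adjusted p = 0.0726).

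Among probes with a gene name in the files, the likeness was weaker. The closest was LOC443444, a progesterone receptor mRNA by its description (r = 0.700, well above background on 26 of 40 arrays), then FLT3LG, a growth factor for dendritic cell precursors (r = 0.633 and 0.591 for its 2 probes), ESR1, an estrogen receptor (r = 0.615), and B2M, the light chain of MHC class I (r = 0.613 and 0.590). PSME2, an activator of the proteasome (r = 0.574), CXCL10, a chemokine that interferons induce (r = 0.572), PSMB8, a subunit of the immunoproteasome (r = 0.533), and TLR3, a sensor of double-stranded RNA (r = 0.527), completed the 10 closest. Of these, both B2M probes were higher in Texel over the fetal stages, the brighter by 0.56 (SE 0.15, limma adjusted p = 0.0229). By group means alone, the closest named probes were those of MYD88, an adaptor of Toll-like receptors (r = 0.932), IFNG (0.904), B2M (0.903), IRF1, a transcription factor that interferon induces (0.899), and LYZ, lysozyme (0.883). Within groups r of this MYD88 probe, A_70_P036560, was 0.090, and it was well above background on 32 of 40 arrays. A second MYD88 probe, A_70_P008191, was well above background on 38 arrays and had r = −0.003 within groups. The IFNG probe A_70_P039611 was well above background on 8 of 40 arrays.

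**Figure D5:**
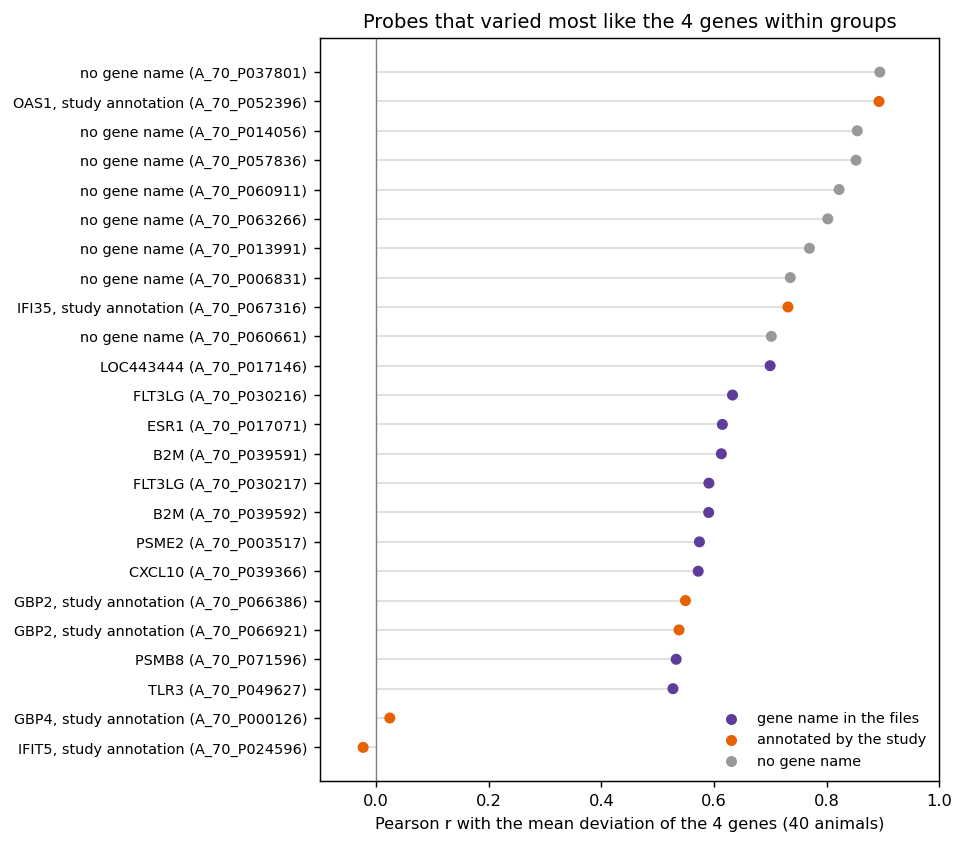
Pearson correlation (horizontal axis) of each probe's deviations from its group means with the mean scaled deviation of MX1, MX2, ISG15 and RTP4 over 40 animals, for the 10 closest probes, the 10 closest with a gene name and the 6 the study annotated as interferon genes. The OAS1 probe stood at 0.893, and the GBP4 and IFIT5 probes near 0.

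Of 5 further probes that the study annotated as interferon genes, on these samples, 1 was close to the 4 genes. This was the IFI35 probe A_70_P067316 (r = 0.731). Both probes annotated GBP2, an interferon-induced guanylate-binding protein, were less close (r = 0.549 and 0.538). A_70_P066386 averaged 2.54 higher in Texel over the fetal stages (SE 0.51, limma adjusted p = 0.00248) and A_70_P066921 1.59 higher (SE 0.35, adjusted p = 0.00587). At 120 d Texel was higher by 6.22 and 3.79 (limma adjusted p = 0.365 for both). Texel was entirely above in both probes, as in 5.86% of all probes. U120 replicate 1, high in all 4 genes, thus lay below every T120 fetus in GBP2. All T120 fetuses were male and all U120 fetuses female, so that sex and breed cannot be told apart there. The study itself named the brighter probe as higher in Texel at that stage, from these samples. Its difference there is therefore a description and no independent evidence, and its average over the fetal stages includes that stage. The probes annotated IFIT5 (r = −0.023) and GBP4 (r = 0.024) were the least close, and were well above background on 22 and 10 of 40 arrays.

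The pathway upstream of the genes was only partly on the array under a gene name, with 1 of the 16 listed interferon ligands, 2 of the 10 receptor and JAK-STAT genes and 14 of the 31 inducers and regulators. None of the 51 further interferon-stimulated effectors or the 7 genes of ISG15 conjugation was found by name. Of the type I receptor chains, IFNAR1 averaged 0.22 lower in Texel over the fetal stages (SE 0.08, limma adjusted p = 0.0777), and IFNAR2 differed by −0.0002 (SE 0.09, adjusted p = 1.00). Neither passed, and their deviations correlated with those of the 4 genes at −0.017 and 0.209. IFNG, the type II interferon, was read by 2 probes. Over the fetal stages the brighter averaged 0.49 higher in Texel (SE 0.15, limma adjusted p = 0.0495) and the dimmer 0.999 higher (adjusted p = 0.203). At 135 d they disagreed, with differences of −0.04 and 2.59 (adjusted p = 0.997 and 0.802). An interferon-alpha probe outside the lists, A_70_P031261, chosen after its values were seen, was well above background on 18 of 40 arrays. Its deviations correlated with those of the 4 genes at −0.136. Texel averaged 0.52 higher over the fetal stages (limma adjusted p = 0.230), and the difference at 135 d was −1.46, lower in Texel.

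Of the 14 inducers and regulators, 2 were called higher in Texel over the fetal stages and none lower, with a median difference of 0.17 against −0.014 over all probes, of which 2.82% were called higher in Texel. They were TLR5, the flagellin receptor (0.61 higher, SE 0.17, limma adjusted p = 0.0290), and TLR6, a partner of TLR2 (0.36 higher, SE 0.11, adjusted p = 0.0439). At 135 d none of the 14 passed. Of 4 genes that interferon-gamma typically induces, B2M, CXCL10, IRF1 and PSMB8, all 4 averaged higher in Texel over the fetal stages, by a median of 0.57, and 1, B2M, passed. Of all probes, 46.9% averaged higher in Texel in this contrast and 2.82% were called higher. CXCL10 differed by 1.26 (SE 0.50, limma adjusted p = 0.131) and IRF1 by 0.57 (SE 0.19, adjusted p = 0.0743). Their deviations correlated with those of the 4 genes at 0.46 to 0.59. Of the 10 leukocyte markers 1 passed over the fetal stages, the myeloid integrin ITGAM (0.86 higher, SE 0.19, limma adjusted p = 0.00587), and 9 of the 10 averaged higher in Texel, against the same 2.82% and 46.9% of all probes.

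Markers of other cell types were set against the deviations of the 4 genes in the same way, and no correlation passed. For the summed leukocyte markers r with the 4 genes was 0.183 (permutation p = 0.478) and rho 0.009 (permutation p = 0.967), and without the 2 most extreme animals r was 0.262. For the endothelial, erythroid, adipocyte, fibroblast and skeletal muscle lists, r lay between −0.215 and 0.170, with permutation p from 0.312 to 0.886. After adjustment over the 6 lists, p was 0.579 or more for Pearson and 0.967 for Spearman correlation. These lists were read from 2 to 10 genes each, and a sum follows its brightest probes. CD1D was the brightest leukocyte marker (mean level 12.03, next ITGB2 at 9.59). Of the erythroid markers, HBB (15.70) was far brighter than EPOR (7.01). Taken singly, the 10 leukocyte markers had r from −0.135 (CD1D) to 0.395 (LYZ), with a median of 0.111.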

How the data were processed

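RNA of each animal was labelled with Cy3 and hybridized to a one-colour Agilent sheep array. Per the submitters' processing notes, the authors extracted the spots with Agilent Feature Extraction 10.5. The deposited scanner files give background-corrected signal intensity (and the mean and background intensity used in 1 alternative), and a deposited table gives the authors' quantile-normalized log2 values, used only as an alternative. Outlier spots were left out, the processed intensities of 40 arrays were quantile-normalized, floored at 1 and log2-transformed, and probes well above background on at least 1 array were tested (14480 of 15008). The number of arrays limits the precision.

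Breeds were compared with limma 3.58.1 (R 4.3.3), per stage on that stage's arrays alone, and over stages, between stages and between sexes in 1 fit over 13 groups, with Benjamini-Hochberg adjustment over all tested probes and a threshold of 0.05. The fits were tested on simulated data with 200 changed probes. Of 100 probes changed by 1 log2 unit, 4 were called at 135 d and 93 over the fetal stages. Of 100 changed by 2 units, 63 and 99 were called. The changed probes were drawn at random from the simulated probes, each with its own SD within groups. The median SD of all probes was 0.31, against 1.00 to 1.21 for the 4 genes, so these counts do not hold for them. Permutations used numpy 2.4.6 and scipy 1.17.1. Symbols came from the files, and 662 probes were matched to RefSeq by accession. In gene lists the probe with the highest mean stood for a gene. Named beyond the members were, per interferon list, up to 3 genes with the smallest p, the 10 and 5 named probes most like the members within groups and by group means, and 6 probes the study annotated. The alternatives were other scaling, background, filters, floor, blocks, tests and single arrays left out. Replicate numbers did not pair the samples. The members and lists were chosen with earlier results of these data known. The p-values measure the spread between single animals, and count the 4 T100 fetuses as separate although some shared a dam.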

Additional observations from a re-analysis of the deposited data

How the results depend on the processing

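With 3 animals a group, differences of 1 log2 unit at 1 stage were mostly below what these tests call. The differences over the fetal stages and those at 100, 120 and 135 d kept their sign in all alternatives. Differences near 0 did not. RTP4 at 70 d ran from −0.23 to 0.92, ISG15 at 70 d from −0.03 to 1.52 and RTP4 at 85 d from −0.30 to 0.64, none of them called. The 0 of 20 breed tests by stage became 5 at an unadjusted p under 0.05 with a 2-fold difference and 4 by the methods' test at the same threshold, which gave 0 both after Benjamini-Hochberg adjustment and with the methods' false discovery clause. It became 1, RTP4 at 120 d, in 1 fit over all groups with a slide block (chosen after seeing the data). The 4 calls over the fetal stages became 0 with a slide block, 0 without the 135 d stage (chosen after seeing the data, as was the exact permutation) and 2 with the replicate block. Leaving out 1 array gave 1 to 4, with 15 arrays that moved the count to 1 or 2, and the RTP4 call was lost without 18 arrays. The replicate numbers share no animal, and correlations between same-numbered samples of the breeds ran from −0.31 to 0.10, so that they do not pair the samples. With the replicate block the RTP4 step from T85 to T100 (1.92, limma adjusted p = 0.164) no longer passed, as with 75th percentile scaling (2.53, 0.0548), the normexp background (2.11, 0.0587) and sex in the model (2.52, 0.0629). Apart from this step and the calls over the fetal stages, the replicate block changed no call. The stage calls became 0 of 4 with a slide block in both breeds. In Ujumqin they became 1 with sex in the model and 1 in the fetuses alone, and leaving out 1 array gave 2 to 3 (Texel 3 to 4). The interaction and sex counts stayed at 0 in all alternatives, and the 6 correlated pairs at 6. The ratio of the members' SD to the median of all probes, 3.64, was 5.45 with the normexp background, 3.98 with a floor of 16, and 3.30 to 3.90 without 1 array. The 70 d test could not be fitted with a slide block.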
